A study of Homo sapiens with 3 samples.

Results

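The genes described here are those of the cytosolic ribosomal proteins, measured by RNA sequencing in HCCLM3, a human hepatocellular carcinoma cell line, and in a pair of subclones derived from it. They were chosen by symbol alone, as RPL, RPS or RPLP followed by a number and at most a short suffix, so that pseudogenes and the RPS6K kinases were left out. The rule found 81 of the 16149 genes listed in any library, 50 of the large and 31 of the small ribosomal subunit. The rule itself used no expression value, but the members and the further lists were chosen with earlier results of these data known. RPSA, FAU, GNB2L1 and RPL36AL also encode ribosomal proteins, or proteins bound to the ribosome, but their symbols fall outside the rule, and they are given with the other mRNAs of their class. RPS4Y1 was not analysed here.

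The 3 libraries were 1 of the parental HCCLM3 cells, which the labels give a low ability to metastasise, 1 of subclone 1, labelled as more metastatic with lung as the target organ, and 1 of subclone 2, labelled as spreading to the lung as well as the celiac lymph nodes. All were cultured in DMEM with no treatment named, and RNA was taken from the culture. The study's methods describe the parental cells as the fluorescent derivative HCCLM3-R with high metastatic potential, and its subclones as populations grown from single cells of lung or lymph node metastases in nude mice. Each subclone is therefore 1 clone, the labels do not say which, and a property of metastatic cells cannot be told apart from a property of that clone. With 1 library in each group there was no replicate check, no test was run, and the intervals below cover counting error only.

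The ribosome is assembled from ribosomal RNA and one copy of most of these proteins, on a small subunit that reads the mRNA and a large subunit that joins amino acids and guides the new chain through an exit tunnel. The proteins are for the most part needed in equal numbers, and their mRNAs are among the most abundant of growing cells. Most of these mRNAs begin with a cytosine followed by a run of pyrimidines, the terminal oligopyrimidine or TOP sequence, through which mTOR signalling and the RNA-binding protein LARP1 control their translation together. Several proteins also act outside the ribosome. RPL5 and RPL11 bind MDM2 when ribosome assembly fails, and RPS6 is the classical substrate of the S6 kinases.

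The start sequences of the members that the results turn on are shown because they are what the class shares in DNA. They come from the RefSeq promoter table of build GRCh38.p14 and were read along the gene's own strand from 15 bases before to 15 bases from the annotated start. The capitals mark the unbroken run of pyrimidines that begins at the annotated start. RPL14, RPL29 and RPL24 lie on chromosome 3 and were lower in both subclones, and all 3 carry the TOP form.
RPL14, chr3:40457324-40457353, plus strand: gggcgggtcttcttcCTTCTCgcctaacgc
RPL29, chr3:51995881-51995910, minus strand: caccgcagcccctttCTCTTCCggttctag
RPL24, chr3:101686704-101686733, minus strand: ttcccatgattctctCTTTCTTTTCgccat
RPL32 lies on the same chromosome and was also lower, but its annotated start holds no pyrimidine run.
RPL32, chr3:12841551-12841580, minus strand: gggttacgacccatcagcccttgcgcgcca
RPL34 on chromosome 4 was higher in both subclones and RPS6 on chromosome 9 lower, and both have the TOP form.
RPL34, chr4:108620561-108620590, plus strand: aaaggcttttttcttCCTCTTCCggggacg
RPS6, chr9:19380222-19380251, minus strand: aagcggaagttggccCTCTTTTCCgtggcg
RPL22L1 had the lowest ratio of all members in subclone 1 over parent, and it is shown beside RPL22, the protein it can replace in the ribosome.
RPL22L1, chr3:170870181-170870210, minus strand: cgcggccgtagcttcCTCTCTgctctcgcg
RPL22, chr1:6199581-6199610, minus strand: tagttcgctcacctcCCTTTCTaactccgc

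Of the 81 members, 65 had an entry among the 27305 promoters of the table. A C at the annotated start followed without a break by pyrimidines, at least 5 in all, was present in 42 of these 65 (64.6%) and in 4.04% of all promoters. The letters CTTTT or CTTTC, searched on the gene's own strand anywhere in the 30-base window and so able to overlap that run, were present in 39 of 65 and in 7.56% of all promoters. The longest pyrimidine run in the window had a median of 11 bases for the members and 4 bases for all promoters. These matches are descriptions of the annotated start and not of the start used in these cells.

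All 81 members were listed in all 3 libraries, and all passed the minimum of 1 RPKM as a mean of the libraries, where RPKM is a read count scaled to the length of the gene model and to the mapped reads of the library. The libraries were shallow, with 4488825, 4609696 and 4725150 mapped reads for parent, subclone 1 and subclone 2 as recovered from the steps of the RPKM values. Of the liver cell markers checked, the keratins KRT8 (1614 to 1742 RPKM) and KRT18 (953 to 1075 RPKM) were high, whereas ALB was 2.46, 49.5 and 68.8 RPKM in parent, subclone 1 and subclone 2, FGB 1.66, 14.5 and 5.6 RPKM and APOB 0.3, 1.23 and 4.17 RPKM. AFP did not exceed 4.27 RPKM, and TTR, SERPINA1 and APOA1 stayed under 1 RPKM. Among markers of other cells, COL1A1 and COL1A2 of fibroblasts stayed at or under 0.403 RPKM and PTPRC of blood cells at or under 0.0836 RPKM. COL3A1 was 4.42, 2.21 and 0.463 RPKM, LUM was 10.1, 24 and 21 RPKM, DCN was 0.773, 4.42 and 2.75 RPKM, and CD68, which tumour cells also express, was 75.3, 112 and 99.6 RPKM. The summed level was 15.7, 31.1 and 24.3 RPKM for the 5 fibroblast markers, 75.4, 112 and 99.6 RPKM for the 4 of blood cells and 3.33, 9.87 and 4.46 RPKM for the 2 of endothelium, nearly all of it PECAM1. The part of other cells in the results below was not tested.

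Ribosomal protein mRNA made up 11.6% of the summed RPKM of the parent, 10.7% of that of subclone 1 and 11% of that of subclone 2. The median member stood at 525, 480 and 468 RPKM in the same order, against 10.8, 10.9 and 11.2 RPKM for all 11370 genes with a mean of at least 1 RPKM. Of the 38 genes of the series with a mean of at least 1000 RPKM, 13 were members. The levels nevertheless spanned a wide range for proteins needed in equal numbers. Among the 76 canonical members, those that are no paralog of another, the 10th and 90th percentiles in the parent were 119 and 1160 RPKM. The medians of the subunits lay close together, at 516 RPKM for the 30 canonical small-subunit genes and 552 RPKM for the 46 of the large subunit in the parent, 498 and 503 RPKM in subclone 1, and 519 and 501 RPKM in subclone 2.

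**Figure D1:**
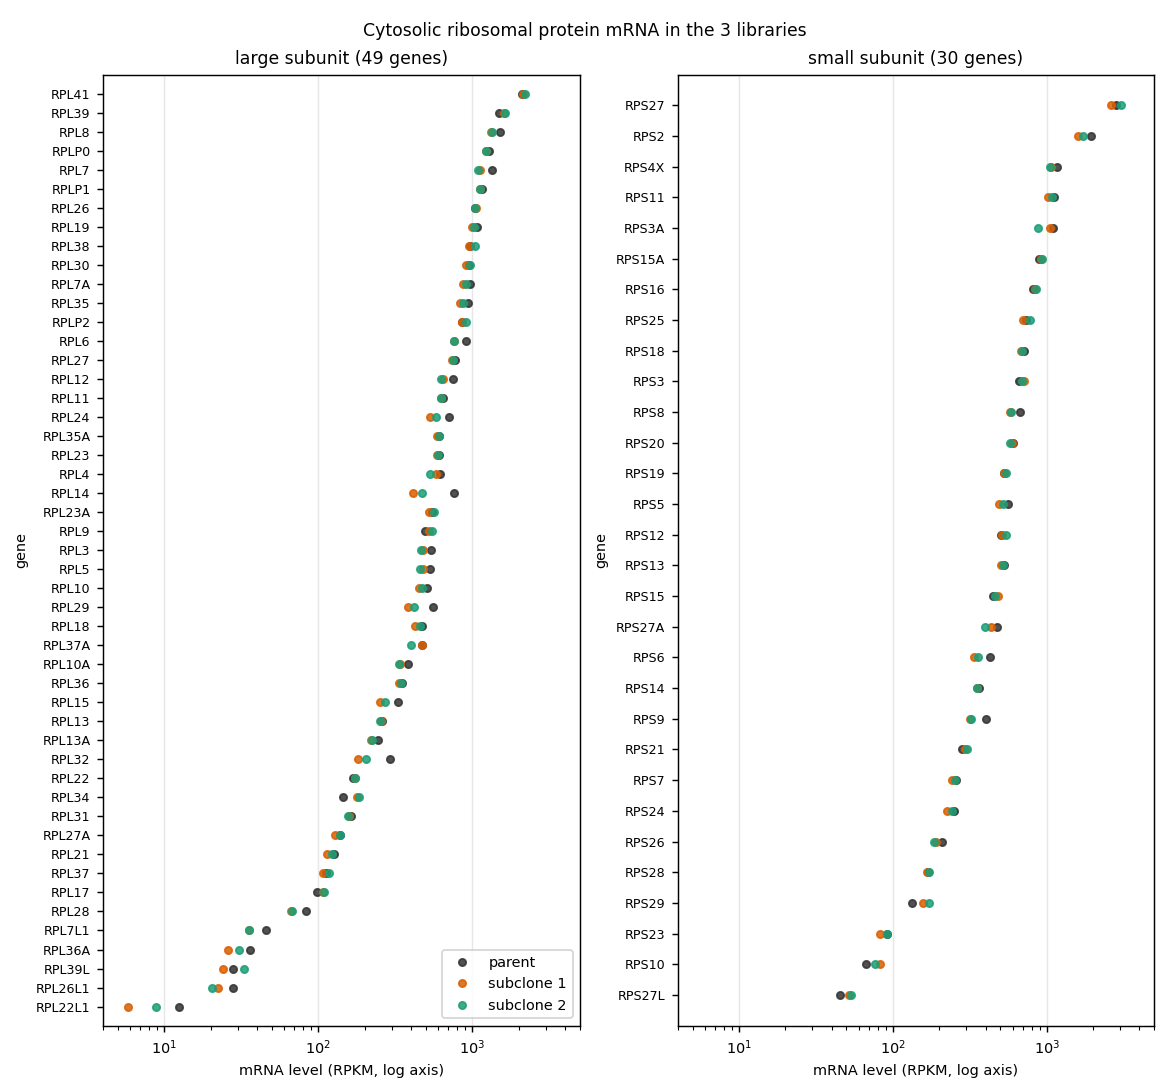
Level of 79 ribosomal protein mRNAs in RPKM on a log axis, with large-subunit genes on the left and small-subunit genes on the right, each ordered by its mean and with 1 point for each library. The order is almost the same in the 3 libraries, from RPS27 and RPL41 at the top to RPL26L1 and RPL22L1 at the bottom, and RPL14, RPL32 and RPL22L1 show the widest gaps between parent and subclones.

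The 6 members of highest mean level were RPS27, RPL41, RPS2, RPL39, RPL8 and RPLP0, which held 23.1%, 23.4% and 24.3% of the summed level of all members in parent, subclone 1 and subclone 2. RPS27, a zinc finger protein of the small subunit, was at 2817, 2594 and 3037 RPKM in parent, subclone 1 and subclone 2. RPL41, the shortest of the ribosomal proteins, was at 2096, 2133 and 2216 RPKM. RPS2, which lines the mRNA entry channel, was highest in the parent at 1936 RPKM, with 1603 and 1715 RPKM in the subclones. RPL39, a small protein of the exit tunnel, was at 1494, 1600 and 1620 RPKM. RPL8, close to the site of peptide bond formation, was at 1520, 1326 and 1344 RPKM. RPLP0, the base of the stalk that recruits elongation factors, was at 1284, 1236 and 1232 RPKM.

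The other stalk proteins ranked lower than RPLP0 although each ribosome carries several copies of them. RPLP1 was at 1154, 1130 and 1126 RPKM and RPLP2 at 851, 854 and 906 RPKM. Of the stalk genes, the folds of subclone over parent stayed between 0.959 and 1.06.

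Among the lowest members were RPL22L1, RPL26L1, RPL39L and RPL36A, of which the first 3 are paralogs. RPL36A, a protein of the large subunit, was at 36.2, 25.7 and 30.5 RPKM. RPL36AL, a near-identical gene outside the rule, was at 172, 170 and 186 RPKM, above RPL36A in every library.

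The order of the levels depends on the gene lengths behind the RPKM, and their spread less so. The gene length implied by the RPKM was at least 2 times the median length of the gene's annotated transcripts for 12 members and over 3 times for 6. Across the 81 members the mean level and the implied length had a Spearman correlation of -0.43, a description over genes that share the same libraries, in which the length is also the divisor of the level. The 90th percentile of the canonical members was 9.77, 9.89 and 9.09 times the 10th as deposited and 9.08, 7.45 and 6.53 times with the median transcript length, in parent, subclone 1 and subclone 2. RPL27A, with an implied length of 4906 bases, ranked 66th in the parent as deposited at 139 RPKM and 13th with the median transcript length. RPL32 moved from rank 55 to rank 25 in the parent by the same exchange. How reads shared with processed pseudogenes were counted is not given in the sources used here. RefSeq names 1914 such pseudogenes for the members, from 0 to 137 a gene with a median of 16, and the Spearman correlation of their number with the mean level was 0.05. Comparisons of 1 gene between libraries use the same length on both sides and do not depend on it.

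In subclone 1 over parent the members moved little and mostly downward. Their median log2 ratio was -0.07, with 61 of 81 below 0, against a median of 0.00 for all 11370 genes and -0.02 for the 651 genes with a mean of at least 100 RPKM. Log2 ratios here are of RPKM with 0.1 added on both sides. The summed level of the members gave a log2 ratio of -0.11. The 95% counting interval of the fold lay below 1 for 37 members and above 1 for 5, where it lay below 1 for 18.9% and above 1 for 19.9% of all genes with reads. Genes at such levels have narrow intervals, and among the 649 with reads and a mean of at least 100 RPKM the shares were 36.8% below and 31.7% above beside 45.7% below and 6.17% above for the members. With libraries scaled to ACTB, which shifted the median of all genes by -0.13, 65 lay below and 1 above. A change of 2-fold or more was found for 1 member, RPL22L1, which was lower, against 1.82% of all genes lower and 4.9% higher. At 1.5-fold, 3 members were lower (RPL14, RPL22L1 and RPL32) and 0 higher, against 7.46% and 11.6% of all genes.

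In subclone 2 over parent the median log2 ratio of the members was -0.04, with 52 of 81 below 0, against 0.04 for all genes and -0.00316 for those of at least 100 RPKM, and the summed level gave -0.07. The interval of the fold lay below 1 for 32 members and above 1 for 9, with 17.8% and 22.7% for all genes and 34.8% and 35.6% for genes of at least 100 RPKM. With totals centred on the median gene, 37 lay below 1 and 5 above. No member reached 2-fold in either direction, where 2.16% of all genes were lower and 5.33% higher. At 1.5-fold, 1 member was lower (RPL14) and 1 higher, against 7.3% and 12.7% of all genes.

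In subclone 2 over subclone 1 the members lay close to the rest of the genes. The median log2 ratio was 0.04 for the members and 0.03 for all genes, and 23 of 81 members were below 0. The interval lay above 1 for 21 members and below 1 for 4, with 11.4% and 8.45% for all genes and 22.7% and 19.4% for genes of at least 100 RPKM. With totals centred on the median gene, 10 lay above 1 and 8 below, and with libraries scaled to ACTB 61 and 1. No member reached 2-fold, as did 1.42% of all genes upward and 1.39% downward. At 1.5-fold, 2 members were higher, RPL22L1 among them, and 0 lower, against 4.75% and 4.11% of all genes. These 3 comparisons share their libraries, so the first and second are not independent of each other.

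The 114 other genes of at least 100 RPKM with an implied length under 1000 bases had a median log2 ratio of 0.09 in subclone 1 over parent and 0.16 in subclone 2 over parent. The 50 large-subunit genes had 25 intervals below 1 and 2 above in subclone 1 over parent, and the 31 small-subunit genes had 12 below and 3 above. The counts in subclone 2 over parent were 23 below and 6 above for the large subunit and 9 below and 3 above for the small subunit. By the start sequence, the median log2 ratio was -0.06 for the 42 members with the TOP form and -0.11 for the other 23 with an entry in subclone 1 over parent, and -0.03 and -0.12 in subclone 2 over parent. The counts that follow stand beside the shares of all genes and of genes of at least 100 RPKM given above. In subclone 1 over parent the interval lay below 1 for 19 of the 42 and 11 of the 23, and above 1 for 4 and 1. In subclone 2 over parent it lay below 1 for 15 and 11, and above 1 for 7 and 2. Subclone 2 over subclone 1 had intervals above 1 for 14 of the 42 and 2 of the 23, and below 1 for 2 of each. The difference between these groups was not tested.

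**Figure D2:**
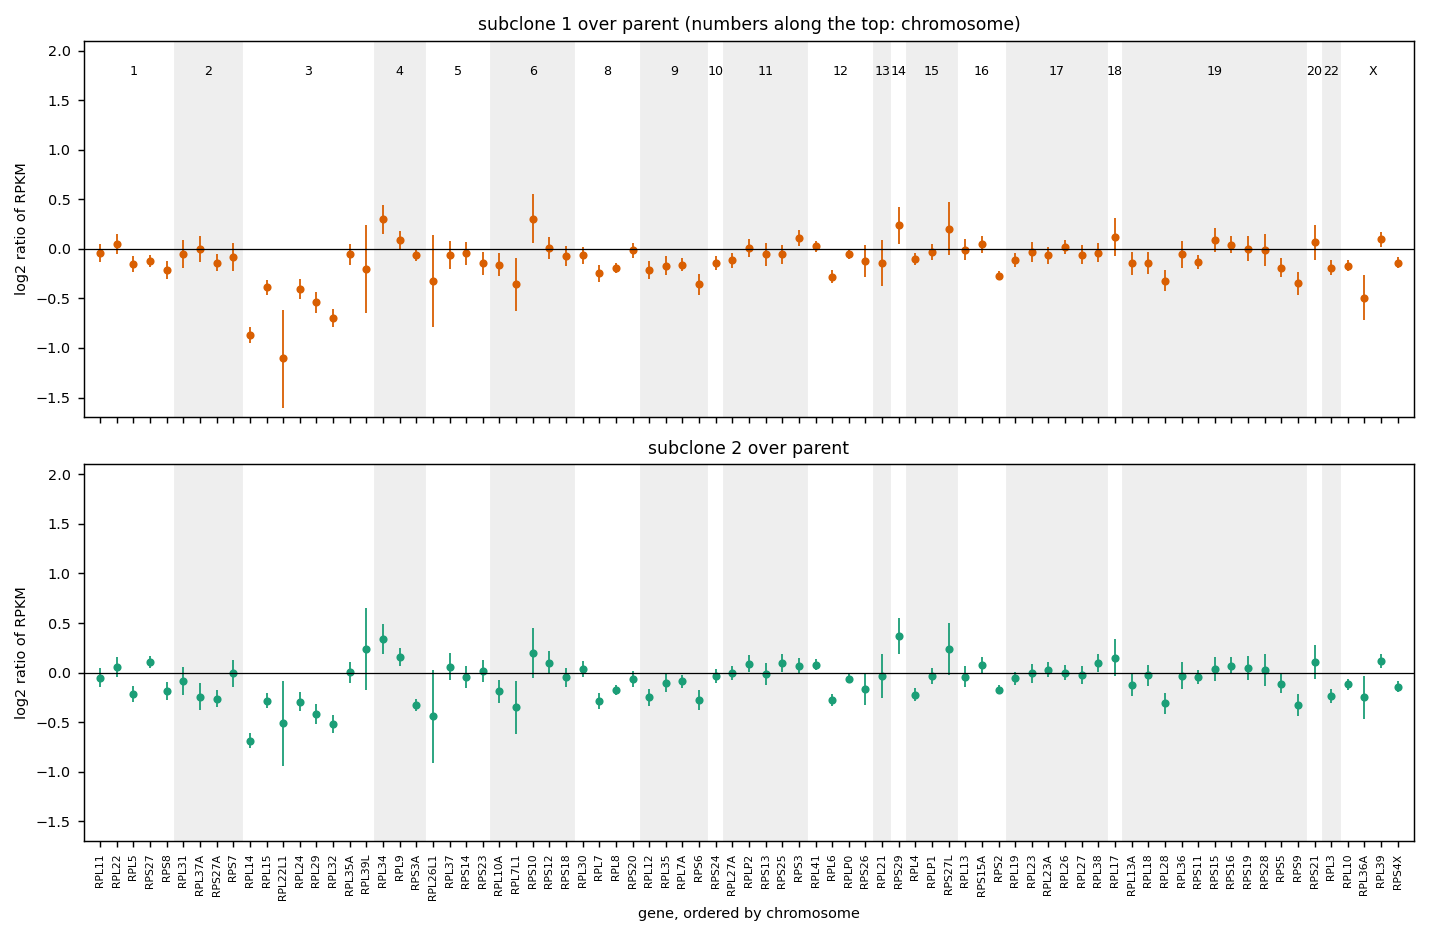
Log2 ratio of the RPKM of 79 members in subclone 1 over parent (top) and subclone 2 over parent (bottom), ordered by chromosome, with lines for the 95% counting interval. Most members lie close to 0, whereas RPL14, RPL15, RPL22L1, RPL24, RPL29 and RPL32 on chromosome 3 lie below 0 in both panels with intervals that leave out 0.

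The 3 lowest ratios of canonical members in both subclones over parent, those of RPL14, RPL32 and RPL29, were on chromosome 3, which carries 8 members. The chromosome was singled out after its values were seen, and so were RPL15, RPL24 and RPL35A as genes to name. The 8 members had a median log2 ratio of -0.47 in subclone 1 over parent and -0.35 in subclone 2 over parent, and 6 of the 8 had an interval below 1 in each. RPL14, a protein of the large subunit, was at 756, 414 and 470 RPKM in parent, subclone 1 and subclone 2. Its fold was 0.547 (95% counting interval 0.516 to 0.580) in subclone 1 over parent and 0.622 (0.588 to 0.657) in subclone 2 over parent, the lowest of the canonical members in both. RPL32, also of the large subunit, was at 293, 181 and 205 RPKM, with folds of 0.617 (0.578 to 0.659) and 0.698 (0.655 to 0.743). The parent was above both subclones by more than counting error for each.

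RPL29, a heparin-binding protein of the large subunit, was at 555, 381 and 416 RPKM, with folds of 0.688 (0.640 to 0.739) and 0.750 (0.699 to 0.804). RPL24, which reaches across to the small subunit, was at 709, 535 and 579 RPKM, with folds of 0.755 (0.704 to 0.809) and 0.816 (0.763 to 0.874). RPL15, a conserved protein of the large subunit, was at 329, 252 and 270 RPKM, with folds of 0.764 (0.723 to 0.807) and 0.821 (0.779 to 0.866). In all 5 of these genes the order was parent, then subclone 2, then subclone 1, and the interval of subclone 2 over subclone 1 lay above 1. RPL35A, near the end of the long arm, stood apart with 609, 587 and 610 RPKM and intervals that held 1 in all 3 comparisons. RPSA, the laminin receptor protein of the small subunit and no member, lies on the same chromosome and was at 218, 137 and 147 RPKM, with folds of 0.629 and 0.675.

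Lower levels were also frequent among the other genes of chromosome 3. The 645 that are no members had a median log2 ratio of -0.22 in subclone 1 over parent, with 438 below 0, and of -0.14 in subclone 2 over parent. Their intervals lay below 1 in 41.5% and 31.0% of the genes with reads. The 20 nearest genes with a mean of at least 1 RPKM, 10 on each side where the chromosome allowed, had a median log2 ratio in subclone 1 over parent of -0.62 at RPL32, -0.54 at RPL15, -0.55 at RPL14 and -0.58 at RPL29, beside -0.70, -0.39, -0.87 and -0.54 for the members themselves. In subclone 2 over parent RPL14 had -0.69 beside -0.32 for its neighbours. At RPL24 the neighbours in subclone 1 over parent had -0.16 and the member -0.41. At RPL35A they had 0.23 and the member -0.05. Whether the number of copies of the chromosome differed between the cells was not tested.

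**Figure D3:**
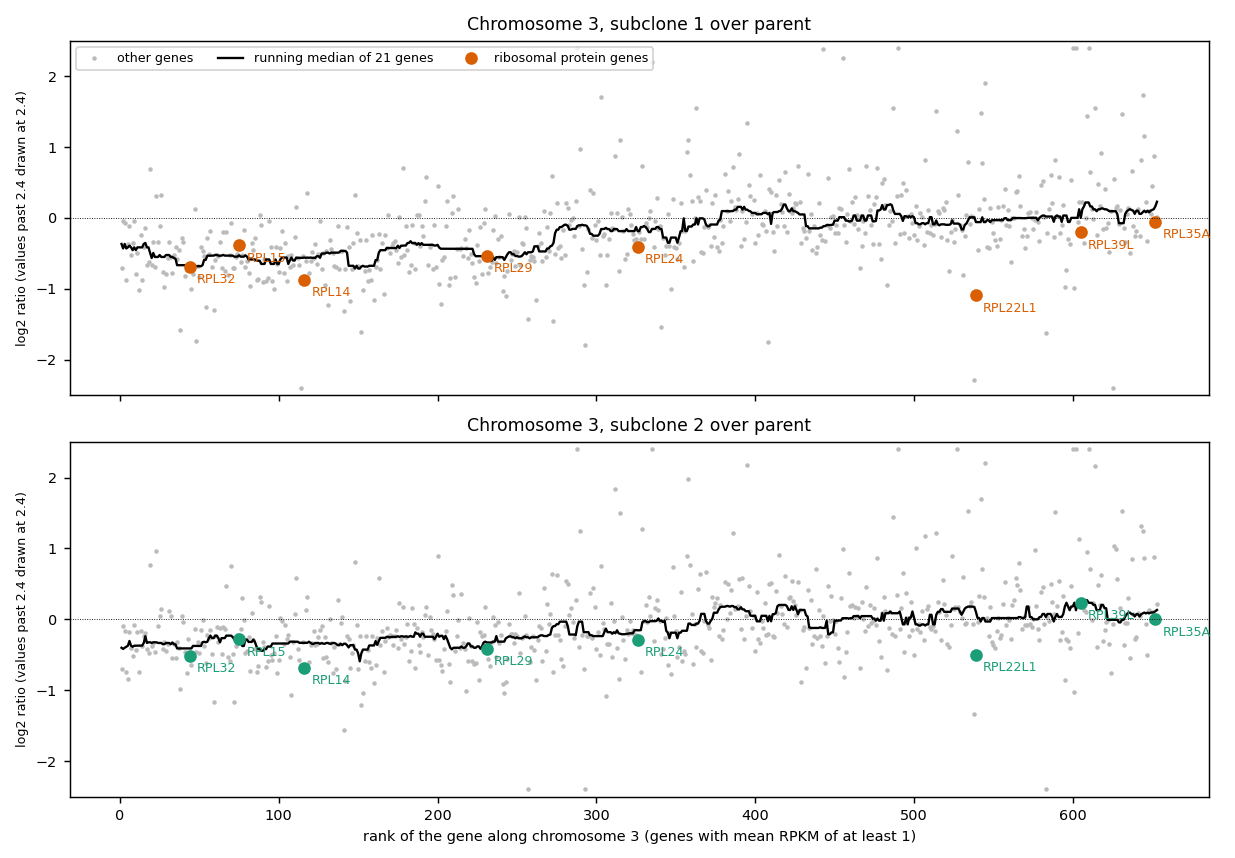
Log2 ratio of every chromosome 3 gene with a mean of at least 1 RPKM, in order of RefSeq position, in subclone 1 over parent (top) and subclone 2 over parent (bottom), with the running median of 21 genes as a line and the 8 members as large points. The line lies below 0 over the first part of the chromosome and near 0 over the rest, RPL32, RPL15, RPL14 and RPL29 lie in its low part, and RPL22L1 lies far below a line near 0.

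RPL22L1 had the widest gap to its neighbours on this chromosome in subclone 1 over parent. It encodes a paralog of RPL22 whose level is known to be held down by RPL22. It was at 12.5, 5.81 and 8.77 RPKM, on 111, 53 and 82 reads, with a fold of 0.465 (0.329 to 0.651) in subclone 1 over parent and 0.702 (0.521 to 0.942) in subclone 2 over parent. The parent was highest and subclone 1 lowest, and subclone 2 over subclone 1 gave 1.51 (1.06 to 2.17). Its 20 neighbours had a median log2 ratio of -0.03 in subclone 1 over parent and 0.14 in subclone 2 over parent. RPL22 itself, on chromosome 1, was at 167, 173 and 174 RPKM, with intervals that held 1 in all 3 comparisons.

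Away from chromosome 3 the remaining 73 members had median log2 ratios of -0.06 and -0.03 in subclone 1 and subclone 2 over parent. Their intervals lay below 1 for 31 and above 1 for 5 in subclone 1 over parent, and for 26 and 9 in subclone 2 over parent. Genes of at least 100 RPKM had 36.8% below and 31.7% above in the first, and 34.8% and 35.6% in the second. All genes had 18.9% and 19.9%, and 17.8% and 22.7%. In subclone 2 over subclone 1 the intervals of 14 of these members lay above 1, beside 22.7% of genes of at least 100 RPKM and 11.4% of all genes. The whole set had 21, so that 7 of the 21 were genes of chromosome 3.

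Elsewhere, 3 members singled out after their values were seen, RPL36A, RPL37A and RPS27A, lay beside neighbours with lower levels. Neighbour medians of -0.25 or below were also found at RPL5 in both subclones over parent and at RPL31 in subclone 2. RPL5, on chromosome 1, had -0.15 beside -0.31 in subclone 1 over parent, where the neighbour median became -0.03 with 10 and with 50. In subclone 2 over parent RPL5 had -0.22 beside -0.32, which became 0.01 with 10 and -0.06 with 50. RPL36A, on the X chromosome, had a log2 ratio of -0.49 in subclone 1 over parent beside -0.54 for its 20 neighbours, which became -0.76 with 10 and -0.24 with 50. RPL37A, a zinc ribbon protein coded on chromosome 2, was at 473, 472 and 400 RPKM, low in subclone 2 alone, with a log2 ratio of -0.24 over parent beside -0.45 for its neighbours. RPS27A, made as a fusion with ubiquitin and coded on the same chromosome, was at 475, 431 and 395 RPKM, with -0.26 beside -0.41 in subclone 2 over parent. The 735 other genes of chromosome 2 had a median of -0.31 in that comparison.

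Over all 81 members the log2 ratio and the neighbour median had a Pearson correlation of 0.48 and a Spearman correlation of 0.26 in subclone 1 over parent, and 0.39 and 0.30 in subclone 2 over parent. Without the chromosome 3 members the Pearson values were 0.21 and 0.23. These describe genes of the same libraries, some of which share neighbours.

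**Figure D4:**
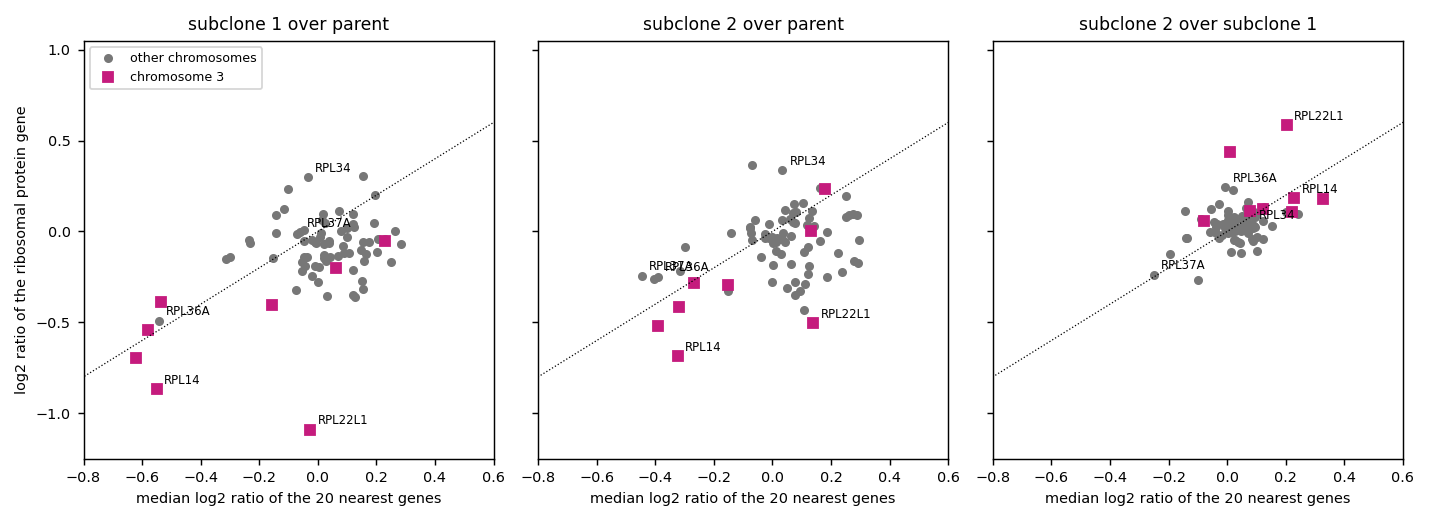
Log2 ratio of 79 members against the median log2 ratio of its 20 nearest genes, for the 3 comparisons, with chromosome 3 members as squares and a dotted line where both are equal. Most members lie near the centre, the chromosome 3 squares and RPL36A extend toward the lower left in the first panel, and RPL22L1 lies below genes with the same neighbour median.

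A further 6 members were lower in both subclones beside neighbour medians of -0.07 to 0.15 in subclone 1 over parent. RPS6 was at 431, 336 and 355 RPKM, with folds of 0.780 (0.724 to 0.840) and 0.825 (0.767 to 0.887), while its neighbours on chromosome 9 had a median log2 ratio of 0.13 in subclone 1 over parent. RPS9, RPL28 and RPL6, named after their values were seen, had folds of 0.785, 0.801 and 0.824 in subclone 1 over parent and 0.798, 0.806 and 0.826 in subclone 2 over parent. RPS2 had 0.828 and 0.886, and RPL7, a large-subunit protein that binds RNA, had 0.842 and 0.819 from levels of 1336, 1125 and 1093 RPKM. In each of these 6 genes the parent was highest and both intervals lay below 1.

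A smaller group was higher in the subclones. RPL34, a large-subunit protein, was at 146, 179 and 184 RPKM, with folds of 1.23 (1.11 to 1.36) and 1.26 (1.14 to 1.40). RPS29, a small zinc-binding protein of the small subunit, was at 133, 157 and 171 RPKM, with folds of 1.18 (1.04 to 1.34) and 1.29 (1.14 to 1.46). RPL39 had folds of 1.07 (1.02 to 1.13) and 1.08 (1.03 to 1.14). These 3 had the parent lowest and both intervals above 1, though the log2 ratio of RPL39 in subclone 1 over parent turned to -0.034 with libraries scaled to ACTB. RPS10, which lies by the mRNA entry site, was at 66.6, 82.2 and 76.3 RPKM, with an interval above 1 in subclone 1 over parent alone (1.04 to 1.47). RPS3, a protein of the mRNA entry channel with a role in DNA repair, was at 658, 711 and 688 RPKM, and its fold of 1.08 (1.02 to 1.14) in subclone 1 was not matched by an interval above 1 in subclone 2 (0.99 to 1.1) and turned to a log2 ratio of -0.022 with libraries scaled to ACTB. That an interval held 1 in one subclone and not in the other does not show that the subclones differed.

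Members known for roles beyond the ribosome or in its assembly moved modestly. RPL5 was at 533, 480 and 459 RPKM, with folds of 0.901 (0.851 to 0.954) and 0.861 (0.813 to 0.912). RPL11, its partner in binding MDM2, was at 645, 626 and 622 RPKM, and both intervals held 1. RPS19, the gene most often mutated in Diamond-Blackfan anaemia, was level at 528, 529 and 545 RPKM. RPL38, known for a role in the translation of Hox mRNAs, was at 973, 947 and 1039 RPKM. RPL13A, which leaves the ribosome in the interferon response, was at 243, 220 and 223 RPKM, with both intervals below 1.

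RPL3, RPL4 and RPL10 build the catalytic centre of the large subunit and its surroundings. RPL3 was at 544, 477 and 461 RPKM, RPL4 at 621, 579 and 533 RPKM and RPL10 at 508, 452 and 468 RPKM. All 3 were highest in the parent, with intervals below 1 in both subclones. RPS4X, the X-linked protein of the small subunit, was at 1167, 1060 and 1057 RPKM, with folds of 0.909 (0.873 to 0.946) and 0.906 (0.871 to 0.943). RPS3A, at 1096, 1049 and 873 RPKM, had the lowest log2 ratio of subclone 2 over subclone 1, at -0.27, beside -0.10 for its neighbours.

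The paralogs were minor members of their pairs. RPL3L and RPL10L, known from striated muscle and testis, were not listed in any library. The share of the summed RPKM of a pair held by the paralog stayed under 7% throughout. RPL22L1 held 6.95% of its pair with RPL22 in parent (95% Clopper-Pearson interval 5.75 to 8.30), whereas subclone 1 had 3.25% (2.44 to 4.23) and subclone 2 had 4.81% (3.84 to 5.93), so that the interval of the parent did not meet that of subclone 1. RPL26L1 held 2.58%, 2.05% and 1.92% of its pair with RPL26, and its level of 27.7, 22.2 and 20.5 RPKM stood beside 1048, 1061 and 1046 RPKM for RPL26.

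RPL39L, an exit tunnel paralog best known from testis, held 1.83%, 1.49% and 1.99% of its pair with RPL39, at 27.9, 24.2 and 32.8 RPKM. RPS27L, a paralog of the small subunit, held 1.58% (1.38 to 1.80), 1.97% (1.73 to 2.22) and 1.72% (1.52 to 1.94) of its pair with RPS27, at 45.2, 52.0 and 53.3 RPKM. RPL7L1, which acts in large-subunit assembly more than in the finished ribosome, held 3.29%, 3.06% and 3.16% of its pair with RPL7, at 45.5, 35.6 and 35.7 RPKM. For RPL26L1, RPL39L, RPS27L and RPL7L1 the intervals of the share overlapped between the libraries.

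**Figure D5:**
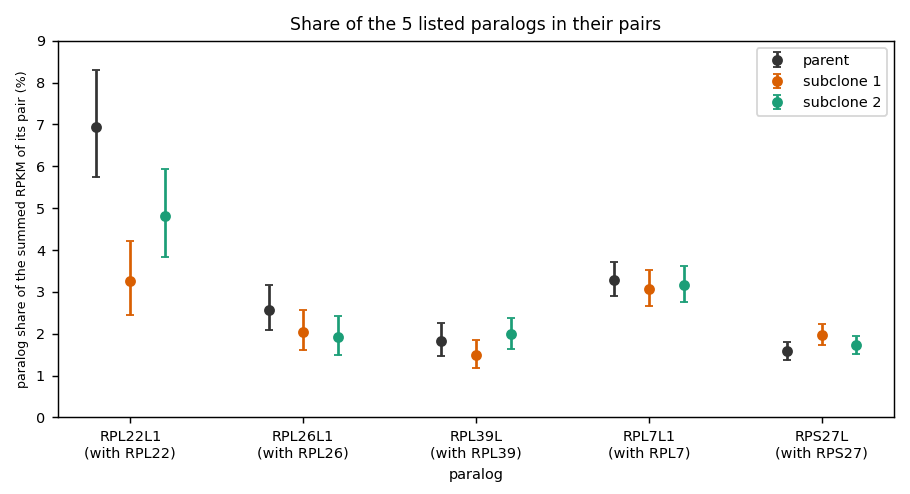
Share in % of the summed RPKM of a pair that the paralog held, in parent, subclone 1 and subclone 2, with 95% Clopper-Pearson intervals that cover counting error only. The share of RPL22L1 goes from 6.95% in the parent to 3.25% in subclone 1, and the intervals of the other 4 paralogs overlap between libraries.

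The wider machinery was read from lists of other genes. Of 28 other mRNAs of the TOP class, which encode translation factors and related proteins, 27 were listed. Their median log2 ratio was -0.14 in subclone 1 over parent and -0.17 in subclone 2 over parent. In each, 18 of 27 intervals lay below 1, and 1 and 2 lay above. All genes had 18.9% and 17.8% below and 19.9% and 22.7% above. Genes of at least 100 RPKM had 36.8% and 34.8% below and 31.7% and 35.6% above. RPSA had the lowest ratio of this list in subclone 1, and CCNI, a cyclin-like protein, the highest, at 92.5, 110 and 111 RPKM. RPSA and EEF1B2, an elongation factor subunit at 247, 195 and 167 RPKM, both stood at a log2 ratio of -0.57 in subclone 2 over parent. Of the ribosomal proteins outside the rule, FAU was at 292, 309 and 313 RPKM and GNB2L1 at 500, 437 and 445 RPKM.

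The genes of ribosome biogenesis, which make ribosomal RNA and assemble the subunits in the nucleolus, were lower by much more than the ribosomal proteins. Of the 36 on the list 34 passed the minimum, with a median log2 ratio of -0.56 in subclone 1 over parent and -0.51 in subclone 2 over parent. The interval lay below 1 for 29 of 34 in the first and 28 of 34 in the second, and above 1 for 1 and for 0, against the shares of all genes given above. NCL, the nucleolar protein nucleolin, was at 423, 248 and 207 RPKM, with folds of 0.585 (0.559 to 0.611) and 0.488 (0.466 to 0.512). RRP12, a factor of subunit maturation, had the lowest ratio in subclone 1, at 12.3, 5.80 and 6.61 RPKM. WDR12, of the complex that processes large-subunit RNA, was at 28.7, 17.1 and 14.0 RPKM. EIF6, which keeps immature large subunits from joining, had the highest ratio, at 125, 140 and 138 RPKM. Between the subclones the median of the list was -0.00222, with NHP2 (80.4, 65.1 and 80.6 RPKM) highest and WDR12 lowest.

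Of the regulators of ribosome production, 19 of 20 passed the minimum, and their medians were -0.04 and -0.05. MYC, a transcription factor that drives ribosome biogenesis genes, was at 88.3, 54.7 and 54.4 RPKM, with folds of 0.620 (0.558 to 0.687) and 0.617 (0.556 to 0.683), and had the lowest ratio of the list in both. CDKN1A, a cell cycle inhibitor, had the highest, at 20, 39.2 and 55.8 RPKM. LARP1, which binds the TOP sequence, was at 67.4, 57.7 and 59.4 RPKM, with both intervals below 1. Of 13 host genes of small nucleolar RNAs, several of which are TOP transcripts, 9 were listed, and their medians were -0.05 and 0.04. SNHG3 was lowest at 9.88, 6.20 and 6.77 RPKM, while SNHG5 (30.6, 38.9 and 34.7 RPKM) was highest in subclone 1 and SNHG7 (11.5, 14.0 and 16.9 RPKM) in subclone 2. Whether the lower biogenesis genes and MYC bear on the members' levels was not tested.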

How the data were processed

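RNA of the parental HCCLM3 cells and of each of the subclones was sequenced once, from Illumina TruSeq RNA libraries. The authors deposited RPKM values for each gene and library. The submitters' processing notes name hg19, and the aligner and the counter are not given in the sources used here. A gene missing from a file was taken as 0. Library totals and whole reads were recovered from the steps of the RPKM as the smallest gene length giving whole reads in all libraries, for 99.0% of the 11370 genes with a mean of at least 1 RPKM and all 81 members. Such a length can be too short, which understates reads and widens intervals.

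Log2 ratios were taken of RPKM + 0.1 with numpy 2.4.6 and pandas 2.3.3 in Python 3.11.15. The 95% intervals are exact Poisson for levels and Clopper-Pearson for folds and shares (scipy 1.17.1), and cover counting error only. Recovery was tested on simulated data. Chromosome and gene order came from RefSeq GRCh38.p14 by gene ID, with all 81 members matched, and no coordinates of the hg19 build were used.

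Genes were named by a rule: the 6 highest and 6 lowest mean levels, the 5 highest and 5 lowest ratios in each comparison, the paralogs with their partners, a list by role, and of each further list the extremes and MYC. The members and lists were chosen with earlier results of these data known. No p-value was computed. Some genes that the rule or the lists hold are counted in the totals but not reported here by name.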

Additional observations from a re-analysis of the deposited data

Results flagged for a closer look

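RPS27, the most abundant member, moved in opposite directions in the subclones, with a log2 ratio of -0.12 in subclone 1 over parent and 0.11 in subclone 2 over parent, from 2817 RPKM in the parent to 2594 and 3037 RPKM. The counting intervals of the folds were 0.883 to 0.960 and 1.04 to 1.12. With 1 library in each group the difference between subclones was not tested beyond counting error.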

How the results depend on the processing

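No paired analysis was possible because each group had 1 library and the labels carry no replicate numbers, and for the same reason no replicate could be left out. Where another scale is named, it moved the median of all genes too. With ACTB the shift was -0.13 in subclone 1 over parent and 0.12 in subclone 2 over subclone 1. With GAPDH it was -0.05 in subclone 1 over parent, 0.06 in subclone 2 over parent and 0.12 in subclone 2 over subclone 1. With the upper quartile it was 0.01, -0.04 and -0.05 in the same order, and with equal sums -0.02 in subclone 2 over parent. Of 189 values of the comparisons recomputed under an alternative, 143 were counted as the same, 45 as moved and 1 as reversed. A ratio or share counted as the same if it stayed within its counting interval, and any other value within a set limit. A ratio counted as reversed only if its interval did not hold equal levels, so others could change sign and count as the same or moved. Dropping the minimum level, or taking members listed in any library, could not change a value, since all members passed both. The causes were not tested, apart from those that the alternative itself makes.

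The median log2 ratio of the members became -0.20 in subclone 1 over parent with ACTB, and 0.16 with ACTB and 0.15 with GAPDH in subclone 2 over subclone 1. The log2 ratio of their summed level in subclone 1 over parent was -0.093 with the upper quartile, -0.24 with ACTB, -0.16 with GAPDH, -0.13 in summed reads and -0.083 off chromosome 3, the last chosen after seeing the data. In subclone 2 over parent it was -0.082 with equal sums, -0.10 with the upper quartile, -0.00311 with GAPDH, -0.10 when centred on the median gene, -0.086 without the 5 highest members, -0.096 in summed reads and -0.048 off chromosome 3. In subclone 2 over subclone 1 it reversed to -0.0096 with the upper quartile and was 0.17 with ACTB, 0.16 with GAPDH, 0.00648 when centred and 0.024 without the 5 highest.

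Members with an interval above 1 in subclone 1 over parent numbered 1 with ACTB and 2 with 99% intervals, and those below 1 numbered 65 with ACTB. Of subclone 2 over parent, 5 lay above 1 when centred. Of subclone 2 over subclone 1, the number above 1 was 10 when centred, 61 with ACTB and 9 with 99% intervals, and that below 1 was 8 when centred and 1 with ACTB. Members past the fold threshold in subclone 1 over parent numbered 3 lower at 1.5-fold, 0 with a pseudocount of 1 and 2 with ACTB. At 1.5-fold they numbered 1 higher and 1 lower in subclone 2 over parent and 2 higher in subclone 2 over subclone 1. The median of the other TOP mRNAs was -0.28 in subclone 1 over parent and 0.14 in subclone 2 over subclone 1 with ACTB. In reads, RPL7L1 held 9.23%, 8.62% and 8.88% of its pair, RPL39L 3.31%, 2.70% and 3.58%, and RPS27L 4.60%, 5.68% and 5.01%.

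Of the named genes whose interval as reported did not hold 1, 5 changed direction. With ACTB these were RPL39 (-0.034) and RPS3 (-0.022) in subclone 1 over parent and RPL4 (0.00608) and RPS27A (0.000661) in subclone 2 over subclone 1. With GAPDH it was RPLP0 (0.00291) in subclone 2 over parent. Genes whose interval held 1 were not counted, whether or not their sign changed. At 4488825 to 4725150 reads a library, a member such as RPL22L1, with 53 reads in subclone 1, had an interval of 0.329 to 0.651 around its fold of 0.465 in subclone 1 over parent.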
